A study of Mus musculus with 4 samples.

Results

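DNA methylation was examined at 7 imprinted windows on mouse chromosomes 10, 11, 12, 15, 17 and 18, named here after Plagl1, Grb10, Zrsr1, Meg3, Peg13, Airn with Igf2r, and Impact. The members were the non-control probes of a CpG island microarray whose mm9 position lay inside a fixed window around each of these regions, by a rule that used positions and no measured value. All 7 windows held probes, 50 in all of 88737 on the array, and in each window the probes formed 1 unbroken run with gaps of at most 1000 bp. Whole brains of 1-day-old C57BL/6 offspring (C57BL/6J in the protocol) were collected after their dams had received 100 ug/mouse of titanium dioxide nanoparticles (TiO2-H) or vehicle (Sham) into the trachea during pregnancy. The sample names place this on gestational day 14 and the protocol on gestational day 10.5. Methylated fragments were captured by methylated DNA immunoprecipitation (MeDIP) with an antibody against 5-methylcytosine and labelled with Cy5, while untreated input DNA was labelled with Cy3, without a dye swap. The 4 groups were Sham male and female and TiO2-H male and female, and each was 1 pool and 1 array, made from 2 offspring of each of 5 Sham dams or 6 TiO2-H dams. No group therefore had a replicate, precision is limited by how few arrays there were, and no spread between litters can be given.

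An imprinted gene is expressed from the copy inherited from one parent, and a stretch of DNA near it carries methylation on 1 parental copy that was laid down in the germ line and is kept through development. In a tissue such as the brain, such a stretch is therefore known as partly methylated, with a methylated and an unmethylated copy side by side, while most CpG islands lack methylation. The stretch next to Meg3 is known to be methylated on the paternal copy and those of the other windows on the maternal copy. The array does not read the parental copies apart, so each value is a sum over both.

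The promoters of Plagl1, Zrsr1 and Airn, whose starts are known to lie in or beside the imprinted stretch, are shown for their CG content, since CG dinucleotides are where DNA methylation is found. They are from RefSeq on GRCm38.p6, 250 bases before to 50 after the start of transcription, printed 5′ to 3′ on the strand of the gene with every CG dinucleotide in capitals. The probe positions are on mm9, and no coordinate was carried from one build to the other.

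Plagl1 (chr10:13090582-13090881, plus strand): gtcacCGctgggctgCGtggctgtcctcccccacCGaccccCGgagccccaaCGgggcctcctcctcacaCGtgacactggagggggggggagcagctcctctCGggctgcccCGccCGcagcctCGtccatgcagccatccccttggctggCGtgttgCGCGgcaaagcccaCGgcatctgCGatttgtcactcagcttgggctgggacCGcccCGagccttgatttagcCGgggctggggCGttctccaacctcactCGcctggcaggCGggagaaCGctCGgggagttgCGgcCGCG

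Zrsr1 (chr11:22971755-22972054, plus strand): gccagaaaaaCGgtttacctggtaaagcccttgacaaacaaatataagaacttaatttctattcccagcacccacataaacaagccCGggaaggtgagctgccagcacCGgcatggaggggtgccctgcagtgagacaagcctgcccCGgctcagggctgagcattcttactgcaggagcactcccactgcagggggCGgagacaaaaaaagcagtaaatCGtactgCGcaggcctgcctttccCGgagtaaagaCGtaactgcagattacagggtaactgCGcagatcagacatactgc

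Airn (chr17:12741061-12741360, plus strand): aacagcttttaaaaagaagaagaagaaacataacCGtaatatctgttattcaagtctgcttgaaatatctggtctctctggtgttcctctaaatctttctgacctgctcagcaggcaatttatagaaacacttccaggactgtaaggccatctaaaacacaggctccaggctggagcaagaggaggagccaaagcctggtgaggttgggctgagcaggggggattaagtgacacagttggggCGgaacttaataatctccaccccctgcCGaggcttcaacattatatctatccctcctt

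The Plagl1 sequence held 26 CG dinucleotides, and 16.9% of 32851 promoters of this length held as many. Zrsr1 held 10 (43.5% held as many) and Airn 3 (76.7%), against a median of 7 over all promoters, 94.6% of which held at least 1 CG. Of the other genes, the Igf2r promoter held 34 and the Grb10 promoters 45 at one start and 9 at another. The Meg3 promoters held 13 at the first listed start and 1 at the other. Of the 7 names other than Impact, 6 matched a RefSeq entry, and Peg13 was not among them.

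The sex labels have to be read with care. In the input (Cy3), X-linked probes relative to autosomal ones were at -0.75 (log2) for Sham male and 0.03 for Sham female, but at 0.03 on the male-labelled TiO2-H array and -0.74 on the female-labelled TiO2-H array. The input DNA of the TiO2-H arrays thus had X-linked levels opposite to the sex labels, which are kept below as labels only. Slide 1 held both male-labelled arrays and slide 2 both female-labelled arrays, so labelled sex cannot be told apart from slide, nor exposure from position, since both Sham arrays lay in position 1. The share of probes with Cy5 well above background was 51.2% and 59.4% on the Sham male and Sham female arrays and 25.3% and 33.0% on the male- and female-labelled TiO2-H arrays, and the part of this difference in the results below was not tested.

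The level of each probe is given as the log2 ratio of Cy5 to Cy3 minus the median of that ratio over the 85850 autosomal probes of the same array, so 0 is the autosomal median and higher values stand for more methylated DNA in the capture. Most windows lay above it. The median over the probes of a window was above 0 on all 4 arrays in 6 of the 7 windows, whereas 28.8% of 13091 autosomal runs of 3 or more probes were. The exception was Zrsr1, at -0.02 on the Sham male array. Of the 50 probes, 37 were above 0 for Sham male, 50 for Sham female and 49 on each TiO2-H array, and 36 (72.0%) were above 0 on all 4 arrays, against 34.1% of autosomal probes. Without centring, 4 windows were above 0 on all 4 arrays, after loess 7 and after normexp background correction 5, and it was 5 when the 45 probes with Cy3 well above background on all 4 arrays were used.

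The height of the windows within each array was compared with that of the 13091 autosomal runs as a description, since probes differ in their response. On the Sham male array the window medians exceeded between 50.5% (Zrsr1) and 91.4% (Plagl1) of runs. On the Sham female array the values were closer together, from 87.6% (Peg13) to 92.0% (Airn/Igf2r). They ran from 86.5% (Airn/Igf2r) to 98.4% (Plagl1) on the male-labelled TiO2-H array and from 82.3% (Impact) to 97.7% (Plagl1) on the female-labelled TiO2-H array. Plagl1 and Meg3, the latter methylated on the opposite parental copy, were the windows with the highest mean over the 4 arrays, at 1.50 and 1.38.

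**Figure D1:**
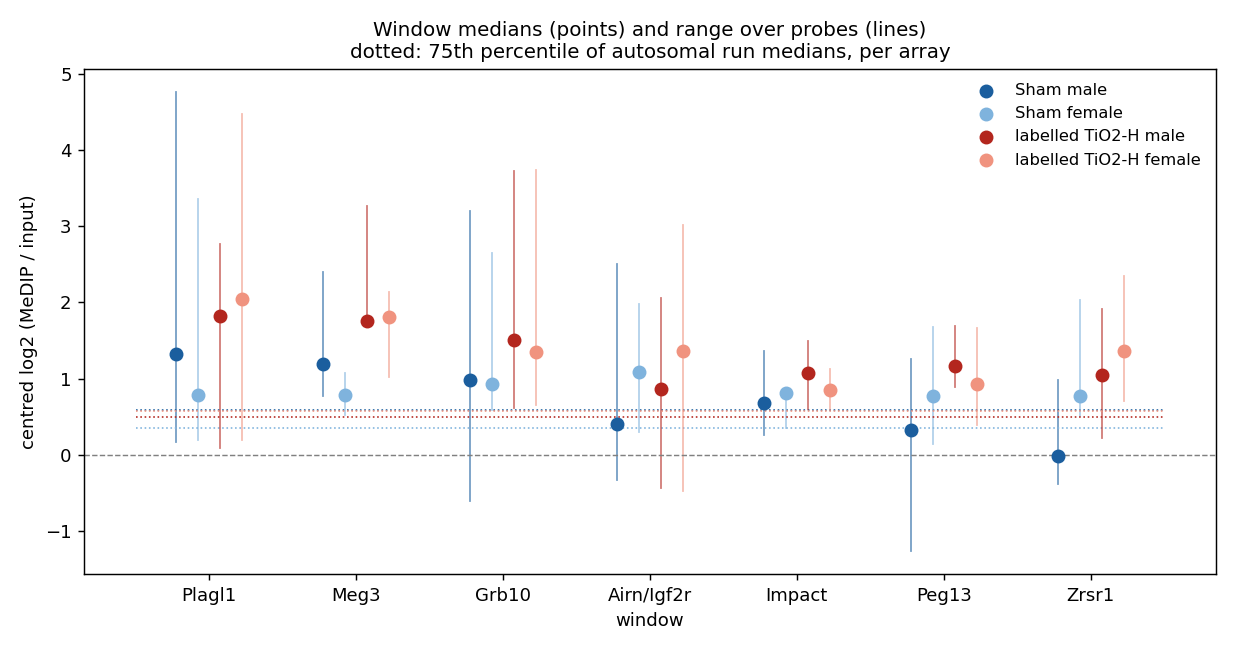
Centred log2 ratio of MeDIP over input in each window, 1 point per array for the median over the probes of the window and a vertical line for the range over its probes. The dotted lines mark the 75th percentile of autosomal run medians on each array (0.35 to 0.59), the dashed line is the autosomal median, and Zrsr1 on the Sham male array is the one point below it.

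Detection limited how many probes carry a usable level. Cy5 was well above background on all 4 arrays at 21 of the 50 probes (42.0%, against 24.0% of autosomal probes) and on none at 17 of 50, against 35.7% of autosomal probes. Grb10 had 7 probes of the first kind, Airn/Igf2r 5, Plagl1 4, Impact and Peg13 2 each, Zrsr1 1 and Meg3 none. The members were also dimmer in the input than most of the array, with 34 to 36 of the 50 below the autosomal median Cy3 on each array, and the part of this in their ratios was not tested. Among probes with Cy5 well above background on the array in question, the members had a median of 1.04 on the Sham male array against 0.84 for autosomal probes, and 0.88 against 0.34 on the Sham female array. On the male- and female-labelled TiO2-H arrays the same medians were 1.50 against 1.08 and 1.36 against 1.41, so on the last array the bright members did not lie above other bright probes.

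The profile over bright probes was similar between arrays. Over the 21 probes bright on all 4 arrays, Pearson's r between pairs of arrays was 0.85 to 0.94, and over the 20591 autosomal probes of that kind it was 0.81 to 0.93. These points share the array design and the dye, and neighbouring probes share DNA fragments, so r describes the profile only. It pools the windows and leaves out dim probes, whose profile was not compared. Among the dim probes, the Zrsr1 probe at 22872291 was at -0.38 on Sham male and between 1.91 and 2.35 on the other arrays.

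**Figure D2:**
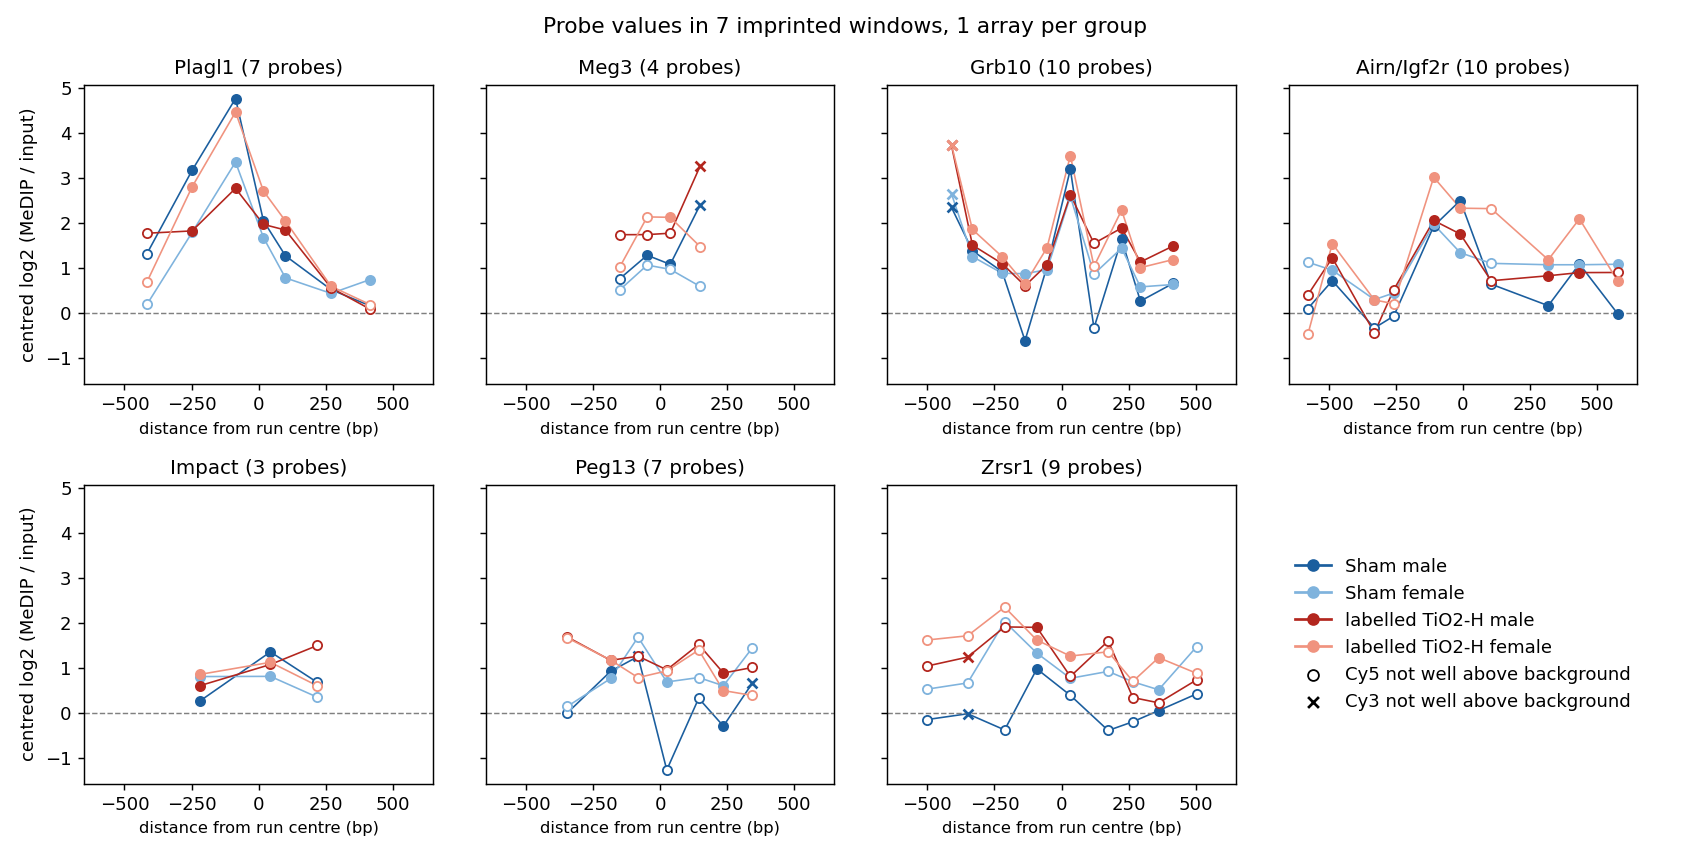
Centred log2 ratio of each member probe against its distance from the centre of its run in bp, 1 panel per window and 1 line per array. Open circles are probes whose Cy5 was not well above background and crosses probes whose Cy3 was not, and the peak near the middle of the Plagl1 run reached 2.77 to 4.77 on the 4 arrays.

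To ask whether the windows differed with exposure, the fold of the centred ratio was taken within each labelled sex, TiO2-H over Sham, with a probe said to have risen at ≥1.5-fold and fallen at ≤0.67-fold. A probe was measured when both arrays had Cy3 well above background, Cy5 was so on at least 1 of them and the p-value of its log ratio was under 0.05 on at least 1. In the male comparison, 19 of the 50 members were measured, and 6 rose and 3 fell. Of 34782 autosomal probes measured, 3.14% rose and 56.0% fell. The median log2 fold was 0.13 over the members and -0.68 over autosomal probes. Measured probes had to be bright on 1 array of the pair, so these counts describe a selected part of the 50. Without any filter 21 of the 50 rose and 3 fell, while 27.9% of autosomal probes rose and 28.8% fell. When both arrays had Cy5 well above background, 4 of 17 members rose and 3 fell, beside 4.03% and 58.4% of autosomal probes. After normexp background correction none of the 19 rose and 2 fell, beside 0.043% and 18.97% of autosomal probes, with a median of -0.06 in the members and -0.07 in autosomal probes.

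In the female comparison, 19 members were again measured, and 12 rose and none fell. Of 41116 autosomal probes measured, 28.8% rose and 36.3% fell, and the median log2 fold was 0.85 over the members and -0.10 over autosomal probes. Without any filter 21 of the 50 rose and 4 fell, while 30.4% of autosomal probes rose and 24.8% fell. That gap narrowed among brighter probes. When both arrays had Cy5 well above background, 11 of 18 members rose and none fell, with a median of 0.72, beside 53.7% and 7.21% of 21324 autosomal probes with a median of 0.64. The values of the female comparison also moved with the scaling, over the whole array as well as in the members. At a common spread of the arrays 1 of the 19 members rose, 6 fell and the median was -0.24, while 5.25% of autosomal probes rose, 43.4% fell and their median was -0.45. Without centring 3 members rose and 2 fell with a median of 0.34, while 10.2% of autosomal probes rose, 51.0% fell and their median was -0.61.

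Arrays of the same exposure also differed from each other. Sham female over Sham male gave 6 rises and 4 falls among 21 measured members, with a median log2 fold of -0.03, beside 32.0% and 33.0% of autosomal probes. The female-labelled TiO2-H array over the male-labelled one gave 6 rises and no fall among 18, with a median of 0.36, beside 63.7% and 1.02%. With the arrays paired across the sex labels, by X-linked input, the female-labelled TiO2-H array over Sham male gave 12 rises and no fall among 19 members (10.3% and 22.1% of autosomal probes). The male-labelled TiO2-H array over Sham female gave 2 rises and 1 fall among 20 (3.36% and 46.2%). In the input alone, a difference of 1.5-fold or more was seen at 2 of the 50 members in the male comparison, at none in the female comparison and at 7 in each comparison of arrays of the same exposure. Of autosomal probes, 2.61% differed so in the male comparison, 1.54% in the female comparison, 13.5% between the Sham arrays and 11.9% between the TiO2-H arrays.

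**Figure D3:**
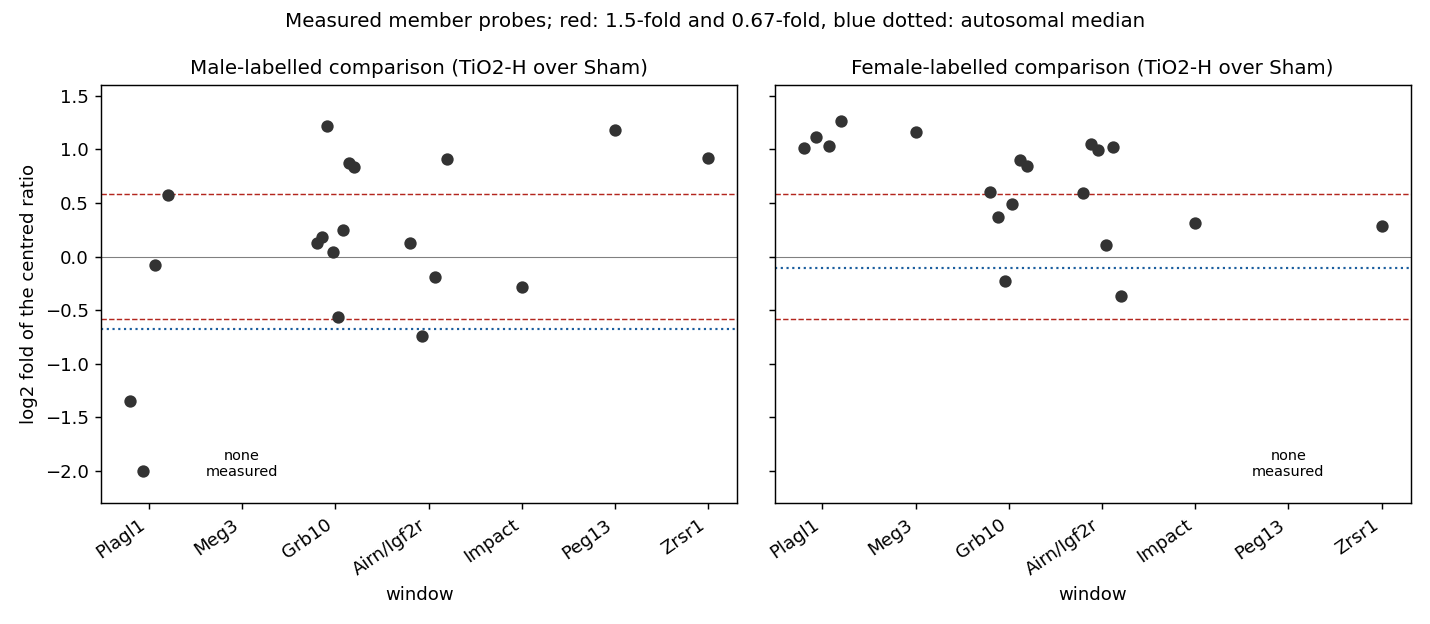
Log2 fold of the centred ratio, TiO2-H over Sham, for each measured member probe by window, in the male comparison (left) and the female comparison (right), with no replicate behind any point. Dashed lines mark 1.5-fold and 0.67-fold and the dotted line the autosomal median (-0.68 and -0.10), and the Plagl1 points lie at or below 0.57 on the left and at 1.01 or more on the right, where the median of the window turned to -0.20 at a common spread of the arrays.

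Plagl1, a zinc finger transcription factor gene expressed from the paternal copy, had 7 probes at chr10:12810275-12811158 (mm9). The window medians were 1.33 on Sham male, 0.78 on Sham female, 1.83 on the male-labelled TiO2-H array and 2.05 on the female-labelled TiO2-H array. Both TiO2-H arrays were above both Sham arrays at this median, though not after loess or normexp. The probe at 12810608 was the highest interpretable member of all, at 4.77 on Sham male, 3.36 on Sham female, 2.77 on the male-labelled TiO2-H array and 4.47 on the female-labelled TiO2-H array. Here the groups overlapped, with the lowest and the second highest value on the TiO2-H arrays. The lowest probe, at 12811106 near the end of the run, lay between 0.09 and 0.75 and had Cy5 well above background on 1 array.

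The window's 4 measured probes had a median log2 fold of -0.71 in the male comparison (0.610-fold), where 2 fell, and of 1.07 in the female comparison (2.10-fold), where all 4 rose. The other 3 probes of the run, which enter the window medians above, did not pass the filter, and over all 7 the male median was -0.075. The probe at 12810608 fell to 0.251-fold in the male comparison and rose 2.16-fold in the female comparison. The probe at 12810446 did likewise, at 3.17, 1.79, 1.83 and 2.81 on Sham male, Sham female and the male- and female-labelled TiO2-H arrays, which gave 0.394-fold and 2.02-fold. The largest rise of the window in the female comparison was at 12810795, where the 4 values in that order were 1.27, 0.78, 1.85 and 2.05 and the fold was 2.40. In the male comparison that probe reached 1.49-fold. Sham female over Sham male was itself at -0.94 (log2) over the window. The rise of the measured probes turned to -0.20 at a common spread, and the fall did not pass the fold at a common spread (-0.29), and turned to 0.18 when Sham male was compared with the female-labelled TiO2-H array. Of 5896 autosomal runs with 3 or more measured probes, 0.594% rose and 60.9% fell in the male comparison, and of 7182 such runs, 17.1% rose and 32.7% fell in the female comparison.

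Grb10, which codes for an adaptor protein that dampens insulin and growth factor signalling, had 10 probes at chr11:11925467-11926345. The gene is known for expression from the maternal copy in most tissues and from the paternal copy in neurons. The window medians were 0.98 and 0.93 on the Sham male and Sham female arrays and 1.50 and 1.36 on the male- and female-labelled TiO2-H arrays. The exposures did not overlap at the window median as centred here, but did under each of 5 other scalings. The first probe, at 11925467, gave the highest ratios of the run (2.35 to 3.74), but neither dye was well above background on any array, so these values are not a level. The highest probe with signal, at 11925917, was at 3.20, 2.60, 2.63 and 3.50 on Sham male, Sham female and the male- and female-labelled TiO2-H arrays. Its neighbours on both sides were lower on every array.

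In the male comparison 8 Grb10 probes were measured with a median log2 fold of 0.22, and 3 rose and none fell. In the female comparison 6 were measured with a median of 0.55 (1.46-fold), and again 3 rose and none fell. The largest rise in the male comparison, 2.33-fold at 11925746, came from a low Sham male value of -0.61 beside 0.88 on Sham female and 0.61 and 0.65 on the male- and female-labelled TiO2-H arrays. Sham male alone stood apart at this probe, whose Cy5 was dim on the male-labelled TiO2-H array. The largest in the female comparison was 1.87-fold at 11925917, which was 0.675-fold in the male comparison. The Grb10 window did not pass the fold in either comparison under any of 12 other settings.

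Impact, a gene for an inhibitor of the stress kinase Gcn2 that is abundant in neurons, had 3 probes at chr18:13131830-13132313. The window medians were 0.68, 0.81, 1.08 and 0.85 on Sham male, Sham female and the male- and female-labelled TiO2-H arrays. These were the closest together of all the windows, with a range of 0.40, and under each of 5 other scalings the exposures overlapped. The single measured probe, at 13132093, was at 1.36, 0.81, 1.08 and 1.12 on the same arrays, with 0.824-fold in the male comparison and 1.24-fold in the female comparison. Neither passed the fold, and both TiO2-H values lay between the Sham values. After normexp the value of the female comparison was -0.65 (log2), a fall past the fold.

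Zrsr1, an intronless gene for a protein related to splicing factors that sits within an intron of Commd1, had 9 probes at chr11:22872000-22873052. The window medians were -0.02 on Sham male, 0.77 on Sham female, 1.04 on the male-labelled TiO2-H array and 1.36 on the female-labelled TiO2-H array, the widest range of any window (1.38). The Sham male array stood apart, with 4 of 9 probes above 0 where the other 3 arrays had all 9. Cy5 was not well above background on any array at 5 of the 9 probes, among them the one with the highest mean, at 22872291 (-0.38, 2.03, 1.91 and 2.35). The lowest mean, 0.38, was at 22872768, where Cy5 was well above background on 1 array. The only measured probe was that at 22872411, bright on all 4 arrays at 0.98, 1.33, 1.90 and 1.62, and both TiO2-H values were above both Sham values. At a common spread the exposures overlapped at the window median. The probe rose 1.90-fold in the male comparison and was 1.22-fold in the female comparison, where a common spread changed it to -0.59 (log2).

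Airn is a long noncoding RNA that starts inside an intron of Igf2r on the opposite strand and is known to silence Igf2r, the receptor that clears insulin-like growth factor 2, on the paternal copy. Their shared window held 10 probes at chr17:12934260-12935460, with medians of 0.41 on Sham male, 1.08 on Sham female, 0.87 on the male-labelled TiO2-H array and 1.37 on the female-labelled TiO2-H array. It was the only window where the exposures overlapped at the median. The highest probe, at 12934729, was at 1.93, 1.97, 2.06 and 3.02 in the same order, with the female-labelled TiO2-H array apart from the other 3 arrays. The lowest, at 12934507, lay between -0.44 and 0.30.

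In the male comparison 4 probes of the Airn/Igf2r window were measured, with a median log2 fold of -0.03, 1 rise and 1 fall. In the female comparison 6 were measured, with a median of 0.79 (1.73-fold), 4 rises and no fall. The rise changed to -0.21 at a common spread of the arrays and to 0.28 without centring. The probe at 12934828 went in opposite directions, at 2.50 on Sham male, 1.34 on Sham female, 1.76 on the male-labelled TiO2-H array and 2.33 on the female-labelled TiO2-H array, which gave 0.597-fold and 1.99-fold. The Sham values were the extremes there, so that the TiO2-H values fell inside their range. The largest rises were 2.07-fold at 12934729 in the female comparison and 1.88-fold at 12935413 in the male comparison, where Cy5 was dim on the male-labelled TiO2-H array.

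Peg13, a noncoding RNA expressed from the paternal copy in brain, lies within an intron of Trappc9 and had 7 probes at chr15:72639885-72640622. The window medians were 0.33 and 0.77 on the Sham male and Sham female arrays and 1.17 and 0.93 on the male- and female-labelled TiO2-H arrays. Both TiO2-H medians were above both Sham medians, which did not hold without centring, at a common spread or after quantile normalization. At 4 of the 7 probes Cy5 was not well above background on any array, including that of the highest mean, at 72640149. The lowest mean was at 72640252, where Sham male was at -1.27 and the other arrays between 0.69 and 0.96. The probe at 72640468 was measured in the male but not the female comparison and rose 2.27-fold, from -0.29 on Sham male to 0.89 on the male-labelled TiO2-H array, while Sham female was at 0.60 and the female-labelled TiO2-H array at 0.50. The Sham male value was the one apart from the rest. The probe at 72640047 was bright on all 4 arrays, at 0.93, 0.77, 1.17 and 1.17, but passed the log ratio limit on none, and no Peg13 probe was measured in the female comparison.

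Meg3, a long noncoding RNA expressed from the maternal copy, had 4 probes at chr12:110766379-110766726. The window medians were 1.19 on Sham male, 0.78 on Sham female, 1.76 on the male-labelled TiO2-H array and 1.81 on the female-labelled TiO2-H array. The groups did not overlap, and Meg3 was the one window where both TiO2-H medians stayed above both Sham medians under each of 5 other scalings. No Meg3 probe had Cy5 well above background on more than 2 arrays, however. None of the 4 did on the Sham female array or on the male-labelled TiO2-H array. The probe of the highest mean, at 110766677, had Cy3 not well above background on 2 arrays, and the lowest, at 110766379, had dim Cy5 on all 4. The only probe measured in the male or the female comparison, at 110766568, was at 1.08, 0.97, 1.78 and 2.13. Both of its TiO2-H values were above both Sham values. In the female comparison, as centred here, it was 1.61-fold with the dim Sham female Cy5 raised to the lowest signal well above background on that array. The fold of the measured values was 2.23. It was 0.65 (log2) without centring and 0.40 (log2) at a common spread, the latter under the 1.5-fold limit.

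With the sex labels set aside, both TiO2-H arrays were above both Sham arrays at the median of 6 of the 7 windows, where 16.9% of autosomal runs were. At the probes this held for 24 of 50, beside 16.3% of autosomal probes, and the reverse held for none, beside 13.6%. The medians and the 50 probes include dim ones. On the male-labelled TiO2-H array Cy5 was well above background at 1 of 9 Zrsr1 probes, 2 of 7 Peg13 probes and 0 of 4 Meg3 probes. The lowest Cy5 signal well above background was 430 and 507 on the Sham male and Sham female arrays. It was 837 and 574 on the male- and female-labelled TiO2-H arrays, and the part of this in these counts was not tested. Of the 21 probes bright on all 4 arrays, 11 had both TiO2-H values above both Sham values and none below, beside 9.59% and 6.69% of such autosomal probes. These counts changed with the scaling. Without centring 6 of the 21 were above and none below, beside 5.07% and 22.1% of such autosomal probes. At a common spread 3 were above and 3 below (3.98% and 27.4%), and after quantile normalization 7 and none (7.66% and 16.998%). After loess it was 5 and 1 (9.51% and 23.7%), and after normexp 3 and 3 (4.85% and 55.9%). The windows with both TiO2-H medians above numbered 3 without centring (4.55% of autosomal runs) and 2 at a common spread (16.7%). Quantile normalization gave 3 (17.6%), loess 3 (21.4%) and normexp 4 (26.3%), and none was below in any of these settings.

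The exposure difference was tested with limma across the 39861 autosomal probes whose Cy3 was well above background on all 4 arrays and Cy5 on at least 2, comparing both TiO2-H arrays with both Sham arrays. Each side then holds a male-labelled and a female-labelled pool as its samples. None of the 28 members that entered the fit was called after Benjamini-Hochberg adjustment (0.0928% of all probes were, 37 in number and all lower on the TiO2-H arrays). No member had an unadjusted p under 0.05, where 5.45% of all probes did, 42 of them higher and 2129 lower on the TiO2-H arrays. The lowest p was at the Meg3 probe at 110766568, with a log2 difference of 0.92 (SE 0.53, limma adjusted p = 0.99998). The Plagl1 probe at 12810795 was next, with 0.92 (SE 0.53, limma adjusted p = 0.99998). The limma estimate was above 0 at 25 of the 28 members and below at 3, with a median of 0.40 against -0.13 over all probes tested. After normexp the split was 14 and 14, with a median near 0 (-0.0028) against -0.27.

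**Figure D4:**
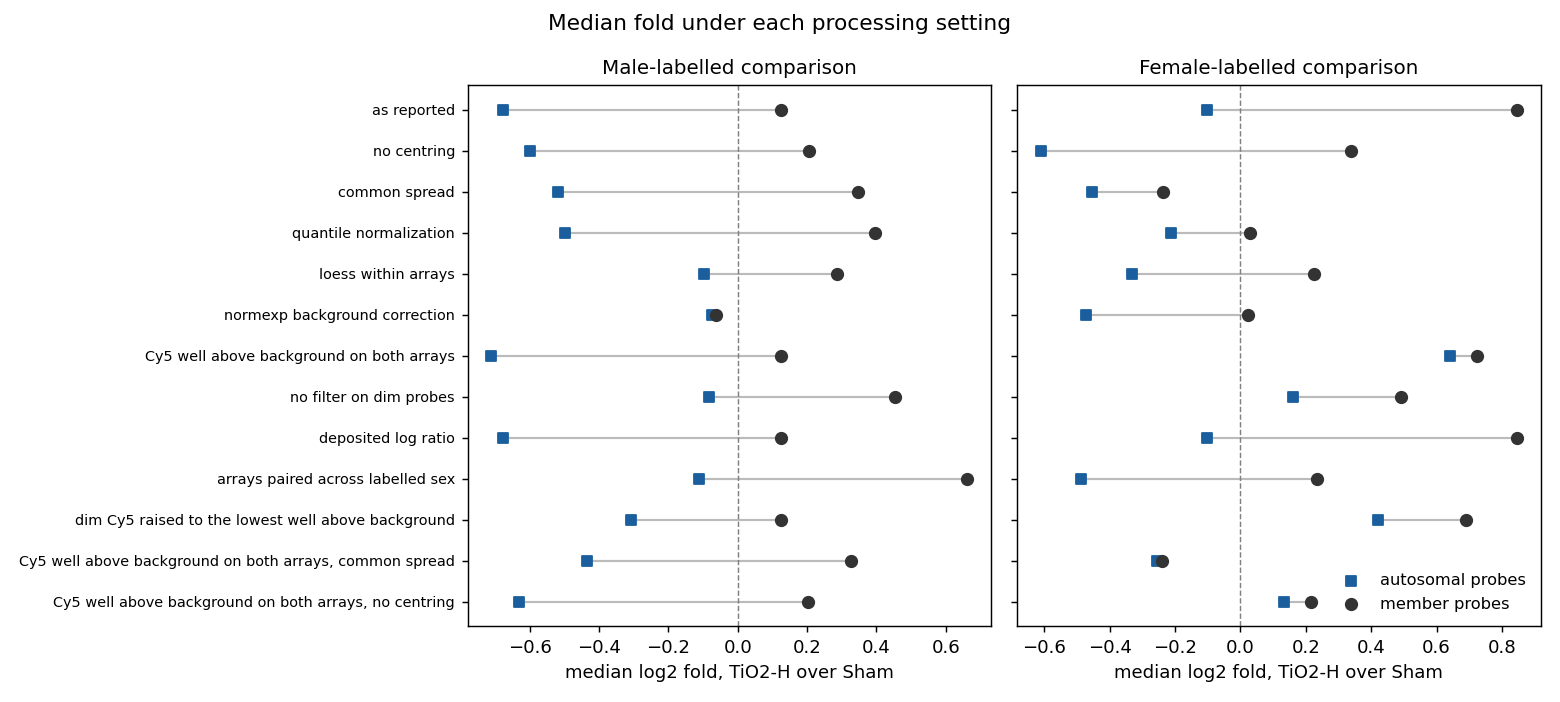
Median log2 fold, TiO2-H over Sham, of the measured member probes (circles) and of all measured autosomal probes (squares) under each processing setting, for the male and the female comparison. The member median was above the autosomal one in each row, by 0.01 (normexp) to 0.90 (quantile normalization) on the left and by 0.01 (bright probes at a common spread) to 0.95 on the right, while its sign changed between settings.

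Around the windows, the nearest run of 3 or more probes outside each was looked up after the values had been seen, at distances of 8829 bp (Zrsr1) to 247991 bp (Peg13). The Grb10, Zrsr1, Meg3, Airn/Igf2r and Impact windows were above that run on all 4 arrays, Plagl1 on 3 and Peg13 on 1. The run beyond Grb10, 10102 bp away, had medians of -0.47, -0.46, 0.31 and -0.65 on Sham male, Sham female and the male- and female-labelled TiO2-H arrays. The run 26355 bp from the Airn/Igf2r window was at -0.23, -0.15, 0.12 and 0.15. Each of these runs was lower than its window on every array. The runs near the other windows had means over the 4 arrays of 1.19 (Plagl1), 0.89 (Peg13), 0.82 (Meg3), 0.28 (Zrsr1) and -0.31 (Impact). Height above the autosomal median was thus not confined to the windows.

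Other genes could be named only through probe annotation of the study that was available in shortened form and sorted by the male fold, which kept a symbol for 4330 probes, so the naming depends on that fold. Of 21 cluster neighbours looked up, 3 were found. Dlk1, the paternally expressed partner of Meg3, had a mean over the 4 arrays of 0.82, Slc22a3, a transporter gene of the Igf2r cluster, of -0.11, and Dio3, a deiodinase gene at the far side of the Meg3 cluster, of -0.79. Of 23 imprinted genes from other chromosomes, 7 were found in 8 runs, of which 7 were above 0 on all 4 arrays. Their means ran from -0.07 at Igf2 to 1.37 at Cdkn1c, with Ndn at 1.14, Peg3 at 0.95 and Kcnq1ot1 at 0.89. Of 12 genes for proteins that keep or remove methylation, 3 were found, with Tet3 at 1.23, Trim28 at 0.31 and Tet1 at 0.08.

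The runs of 5 or more probes whose 4 medians were most like the median of the 7 windows on each array, by the root mean square difference over the 4 arrays, were also listed. Of 8833 runs, 65 lay within 0.25 of it, so other parts of the genome held runs with a profile of this kind. The 5 nearest had differences of 0.10 to 0.14 (log2). One of them was a Gnas run of 24 probes, the imprinted stimulatory G protein locus, at 0.65, 1.01, 1.10 and 1.36 on Sham male, Sham female and the male- and female-labelled TiO2-H arrays. Another was at Rbmxl2, a germ cell RNA-binding protein gene, at 0.79, 0.98, 1.17 and 1.31, and the other 3 had no symbol here.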

How the data were processed

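Arrays were scanned and read by the authors with Agilent Feature Extraction 10.7.3.1 (per the file headers, mm9). The deposited Cy5 and Cy3 processed signals are linear intensity values from which Feature Extraction had taken off background and a spatial trend before scaling each dye of an array by a single factor, with a deposited log ratio (log10 of Cy5 over Cy3) and its p-value per probe. The authors' series table holds the same log10 ratios. From these, log2 ratios were centred on the autosomal median of each array, with no loess or quantile step.

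Groups came from the sample titles, while the description field of all 4 samples names male mice and vehicle. Outlier-flagged probes were left out of folds, and no probe was saturated. A dim Cy5 signal was raised to the lowest signal well above background for a bounded fold. The fold thresholds, the p-value limit and the limit on Cy5 followed the study's methods, and the limit on Cy3 and the centring were added. The difference between exposures was fitted with limma 3.58.1 (R 4.3.3, lmFit and eBayes), with Benjamini-Hochberg adjustment at 0.05 and tested on simulated data. Other steps used Python 3.11.15, pandas 2.3.3 and numpy 2.4.6. Windows, runs and gene lists were chosen with earlier results of these data known, and named probes are those of highest and lowest mean and of largest fold in each window. Alternatives were no centring, a common spread (median absolute deviation), quantile, loess (span 0.3), normexp (offset 50), other filters on dim probes, the deposited log ratio, crossed pairs of arrays, the slide as a block and leaving out each array. Symbols were matched by probe name and position at 5332 probes and kept where RefSeq (GRCm38.p6) placed them on the same chromosome. Exon and intron positions on mm9 were not analysed here. Fragments span neighbouring probes, so probes of a window are not independent.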

Additional observations from a re-analysis of the deposited data

Results flagged for a closer look

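The 4 measured probes of the Plagl1 window fell at their median in the male comparison and rose in the female comparison, with a difference between the median log2 folds of 1.79. Over all 7 probes the male median was -0.075, under the fold. At its probe at 12810446 the log2 folds differed by 2.36, and at 12810608 by 3.11. In the Airn/Igf2r window the probe at 12934828 fell and rose in the same way, with a difference of 1.73. Each was picked out because the changes past the fold ran in opposite directions in the 2 labelled sexes, with 1 array behind each value, and the difference was not tested. The X-linked input of the TiO2-H arrays was opposite to the sex labels, and with arrays paired by X-linked input the Plagl1 window was at 0.18 and 0.16, past the fold in neither pair.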

How the results depend on the processing

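In the male comparison the 9 changed members became 2 after normexp (0 rose) and 24 of 50 without a filter on dim probes (21 rose), and stayed within 1.5 times of 9 under the other 10 settings, with 7 to 12. In the female comparison the 12 changed members became 5 without centring, 7 at a common spread (1 rose), 4 after quantile normalization, 2 after loess, 6 after normexp, 25 of 50 without a filter and 3 with the arrays paired across labelled sex. Over autosomal probes the shares that rose and fell in the female comparison were 28.8% and 36.3% as reported, 7.34% and 34.98% after quantile normalization, 5.58% and 33.3% after loess and 4.09% and 43.1% after normexp. In the male comparison the autosomal shares ran from 0.043% to 27.9% for rises and from 15.5% to 58.4% for falls over all settings. With Cy5 above background on each of the 2 arrays, the count of changed members in the female comparison was 11. It was 7 with a common spread in addition and 4 without centring in addition. Both additions were chosen after seeing the data, as were the raised dim Cy5 signals and the settings for arrays of the same exposure. The Sham pair went from 10 changed members to 16 at a common spread.

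The Plagl1 fall reversed to 0.18 (log2) with arrays paired across labelled sex. The Plagl1 rise reversed to -0.20 at a common spread, with or without the stricter Cy5 filter. The Airn/Igf2r rise reversed to -0.21 under the same settings. With arrays paired across labelled sex, this window was at -0.044 for the male-labelled TiO2-H array over Sham female. For the female-labelled TiO2-H array over Sham male it was at 0.78, past the fold, with 5 rises among 6 measured probes. Loess, normexp and quantile normalization took all 3 under the fold without reversing them. The Plagl1 fall was also under the fold at a common spread (-0.29) and without a filter (-0.075). The Plagl1 rise was under it without centring (0.56) and with arrays paired across labelled sex (0.16), and the Airn/Igf2r rise without centring (0.28) and without a filter (0.35). The Meg3 rise was lost at a common spread (0.40), and Impact in the female comparison went to -0.65 after normexp. The cause was not tested.

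No member was called by limma under any of 11 alternatives, the slide as a replicate block included (0 called, and 70 instead of 37 over all probes), and leaving out each array in turn gave 0 each time. An unadjusted p under 0.05 was reached by 3 members after loess and 2 without a filter, all higher, and by 1 at a common spread, lower. Over all probes these were 1889 of 39861, 3660 of 85839 and 4030 of 39861. Of these, 367 were higher after loess, 1398 were higher without a filter and 3996 were lower at a common spread. A lone array left on a side was assumed to vary like the others. Over all probes, calls then numbered 643 without Sham male, 434 without Sham female, 42 without the male-labelled TiO2-H array and 179 without the female-labelled TiO2-H array. Labelled sex equals slide, so the block pairs arrays by slide only. With 17 of 50 members never above background in Cy5, most of the Zrsr1, Peg13 and Meg3 windows could not be compared.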
